A study of Mus musculus with 36 samples.

Results

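The 31 genes described here encode the intraflagellar transport (IFT) machinery, the BBSome and its helpers, and the transcription factor Rfx3, measured by RNA-seq in mouse embryonic stem cells. They were taken by gene symbol from the deposited count table. The group was chosen by measured values: Lztfl1, Rfx3 and Ift22 were among the lowest genes in BPK25 against DMSO at day 0, so that contrast is given as a description with no test. All 31 symbols were found once each in the table of 55335 genes, and all 31 passed the filter on low counts that kept 17394 genes. By role, 11 belong to IFT complex B, 5 to IFT complex A, 3 are motor subunits, 11 belong to the BBSome or act on it, and 1 is Rfx3.

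The series asked how the NuRD chromatin remodelling complex shapes chromatin at CTCF sites, per its title. It holds 36 libraries of polyA RNA in 12 groups: DMSO, BPK25 or auxin (IAA), each labelled day 0, 2, 4 or 6, with 3 libraries per group. BPK25 is a small molecule known for lowering subunits of NuRD, and auxin is the plant hormone used to deplete proteins that carry a degron tag. DMSO, the solvent, served as the control of the same day. All groups share the medium, with serum replacement and LIF, and plates that typically carried irradiated mouse embryonic fibroblasts as feeders. The labels give neither the tagged protein, the clone, the dose, nor what the day counts from. They do not say that replicates were separate cultures. Each p-value therefore reflects only how far libraries of the same group differ, possibly for technical reasons, with this spread estimated over all 12 groups.

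IFT trains carry cargo along the axoneme of the cilium. Complex B moves with kinesin-II towards the tip, and complex A is needed for the return with cytoplasmic dynein. The BBSome is a coat-like complex that rides on IFT trains and takes membrane proteins out of the cilium, and RFX factors bind the X-box element in promoters of many ciliary genes. Embryonic stem cells can carry a solitary primary cilium, the organelle that Hedgehog signalling uses.

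The promoter windows of the 3 genes that prompted the choice and of Ift88, which differed most from DMSO, are shown first. They come from RefSeq (build GRCm38.p6, the same build as mm10) and run from 250 bases before to 50 bases after the annotated start, 5′ to 3′ on the gene's strand. Capitals mark the RFX half-site GTTGCC on either strand and, in Lztfl1, an X-box, a palindrome-like element that contains 2 half-sites.
Lztfl1 (chr9:123717576-123717875, minus strand): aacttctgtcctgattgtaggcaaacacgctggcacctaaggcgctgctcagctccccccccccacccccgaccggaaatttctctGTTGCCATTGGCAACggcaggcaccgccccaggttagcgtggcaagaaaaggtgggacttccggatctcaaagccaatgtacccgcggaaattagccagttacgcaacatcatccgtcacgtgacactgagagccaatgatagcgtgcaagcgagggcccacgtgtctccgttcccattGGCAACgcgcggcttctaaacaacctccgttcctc
Rfx3 (chr19:28011117-28011416, minus strand): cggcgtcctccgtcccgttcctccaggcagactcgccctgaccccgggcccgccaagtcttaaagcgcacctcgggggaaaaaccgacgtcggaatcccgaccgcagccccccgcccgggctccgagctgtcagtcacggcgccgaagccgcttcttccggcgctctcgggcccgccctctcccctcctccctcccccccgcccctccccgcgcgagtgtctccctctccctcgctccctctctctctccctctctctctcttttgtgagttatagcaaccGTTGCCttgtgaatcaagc
Ift22 (chr5:136907900-136908199, plus strand): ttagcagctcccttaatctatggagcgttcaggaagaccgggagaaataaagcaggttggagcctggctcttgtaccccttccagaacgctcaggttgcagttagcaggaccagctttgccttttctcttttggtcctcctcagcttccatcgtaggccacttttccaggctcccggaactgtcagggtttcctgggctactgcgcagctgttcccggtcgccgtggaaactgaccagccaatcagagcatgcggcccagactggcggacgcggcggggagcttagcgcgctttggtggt
Ift88 (chr14:57423821-57424120, plus strand): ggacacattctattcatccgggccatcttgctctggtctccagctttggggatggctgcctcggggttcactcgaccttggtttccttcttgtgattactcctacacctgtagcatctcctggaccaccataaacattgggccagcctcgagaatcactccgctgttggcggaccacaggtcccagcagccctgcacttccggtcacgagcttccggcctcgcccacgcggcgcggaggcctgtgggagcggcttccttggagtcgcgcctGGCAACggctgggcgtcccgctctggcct
Counted from the start, the X-box of Lztfl1 lies at -164 to -150. A further half-site of that gene lies at 16 to 21, the one of Ift88 at 22 to 27 and the one of Rfx3 at 32 to 37, while the Ift22 window holds none of these letters. In the GENCODE annotation of the same build, the genes span chr9:123694416-123717697 (minus strand) for Lztfl1, chr19:27761721-28011166 (minus strand) for Rfx3, chr5:136908150-136915404 (plus strand) for Ift22 and chr14:57424062-57517936 (plus strand) for Ift88.

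Windows were found for 28 of the 31 genes, leaving Ift80, Ift81 and Ift122 without one. The half-site occurred in 13 of the 28 windows (46.4%) and in 14.1% of the windows of all 27025 genes in the table. An X-box occurred in 3 of 28 (10.7%) against 1.32% of all genes. The core of the CTCF motif was in 0 of 28 and in 2.82% of all windows. The other X-box genes are Ift57, a peripheral subunit of complex B with a pair of X-boxes, and Bbs1, a BBSome subunit. Their X-box stretches, with the element in capitals, show how near to the start it lies, at -87 to -74 and at -60 to -48 in Ift57 and at 2 to 15 in Bbs1.
Ift57 (chr16:49699195-49699258, plus strand): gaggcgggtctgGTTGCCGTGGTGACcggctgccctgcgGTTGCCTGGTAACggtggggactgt
Bbs1 (chr19:4906601-4906638, minus strand): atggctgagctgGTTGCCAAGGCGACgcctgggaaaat
These matches are letters in a window and do not show that a factor binds there.

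The libraries held 6621290 to 16497800 counts in genes. Marker sums in CPM (reads of a gene per unit of library size, after TMM scaling) moved with day and treatment: the sum of 10 embryonic stem cell genes, among them Pou5f1 and Nanog, averaged 3120 in DMSO at day 0 and 858 at day 6, and that of 10 fibroblast genes 42.7 and 159. Fbn1 made up 25.9 and 88.6 CPM of the fibroblast sum in DMSO at days 0 and 6, while Pdgfrb, also in that sum, went from 6.39 to 5.29. At day 2 the stem cell sum was 2925 in DMSO, 2931 in BPK25 and 1649 in IAA, against 1349 in DMSO at day 4. Of the factors that switch on multiciliated cells, Foxj1 had group means of 0.546 to 2.09 CPM, Mcidas of 0 to 0.235 and Gmnc of 0 to 0.0614. The sum of 10 multiciliated cell genes, these factors included, was not near 0 and was not flat. It averaged 65.8 CPM in DMSO and 112 in IAA at day 0, and 34.3 and 31.4 at day 6. Hydin, one of the 10, averaged 42.5 CPM in DMSO and 72.5 in IAA at day 0. Ctcf was between 252 and 423 CPM in all 36 libraries, which says nothing of its protein.

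The 12 IAA libraries and the 3 libraries labelled BPK25 at day 4 stood apart from the other libraries by chromosome. Against the DMSO mean of the same day, the median tested gene of chromosome 14 from 45 Mb to the end lay at -0.92 to -0.48 (log2) in the IAA libraries and at -0.78 to -0.76 in the libraries labelled BPK25 at day 4. In the 18 libraries of DMSO and of BPK25 at days 0 and 2 it lay between -0.04 and 0.01. The 3 libraries of BPK25 at day 6 lay a little to the same side as IAA, at -0.09 to -0.07, with 69.5% of these genes below DMSO, and at 0.07 to 0.10 on the start of chromosome 14, 0.06 to 0.07 on chromosome 12 and 0.03 on chromosome 8. The start of chromosome 14 lay at 0.36 to 0.58 in IAA and 0.49 to 0.51 in the libraries labelled BPK25 at day 4, chromosome 12 at 0.21 to 0.47 and 0.30 to 0.31, and chromosome 8 at 0.17 to 0.30 and 0.25 to 0.27. Medians of the remaining 17 chromosomes stayed between -0.10 and 0.05 in BPK25 against DMSO at day 4. DMSO libraries lie near 0 by construction, since they enter the mean of their day. These stretches also moved with time in DMSO. At day 4 against day 2 the medians were 0.18 on chromosome 14 before 45 Mb and -0.13 from there on. They were 0.15 on chromosome 12 and 0.07 on chromosome 8. Between the libraries labelled BPK25 at day 4 and IAA at day 4, the median difference lay between -0.06 and 0.05 on every whole chromosome, and was 0.11 on chromosome 14 before 45 Mb and 0.01 from there on. DNA copy number was not analysed here, and the treatment cannot be told apart from whatever else these 15 libraries share. Ift88 lies on chromosome 14 beyond 45 Mb, Wdr35, Ift43 and Ttc8 on chromosome 12, and Bbs2 on chromosome 8. Beside log2 differences of these 5 genes stands the value centred on the median of their chromosome stretch, a setting chosen after seeing the data.

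**Figure D1:**
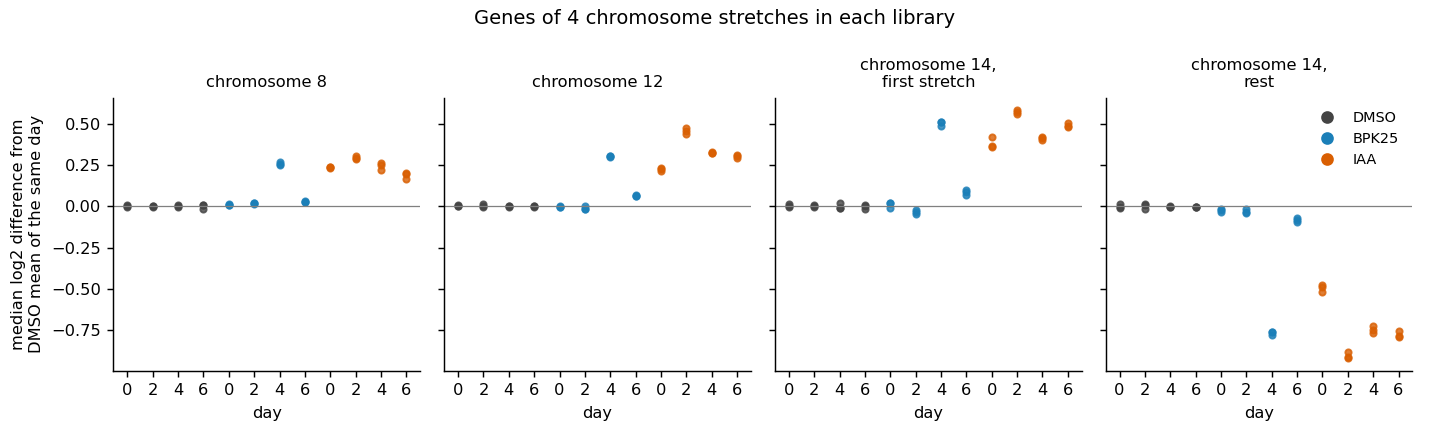
Median log2 difference of the tested genes of 4 chromosome stretches (vertical axis) in each of the 36 libraries, by treatment (colour) and day, against the mean of the DMSO libraries of the same day. Points of IAA and of the libraries labelled BPK25 at day 4 lie off 0 in each panel, with chromosome 14 divided at 45 Mb into a first stretch and the rest.

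Per kilobase of annotated exon, the levels in DMSO at day 0 ran from 0.906 CPM per kb for Rfx3 to 24.8 for Kif3a, a kinesin-II motor subunit. Wdr35, a complex A subunit, stood at 22.2 and Ift20, the complex B subunit that also sits at the Golgi, at 19.1. At the low end were Bbs12, a chaperonin-like assembly factor of the BBSome, at 1.00, Lztfl1, which holds the BBSome back from the cilium, at 1.14, and Ift27, a small GTPase of complex B, at 1.34. The genes chosen for their day 0 values were thus among the sparsely expressed ones. Over the 36 libraries Bbs12 had 13 to 57 counts, Ift27 14 to 71, and Ift22 20 to 116.

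In BPK25 at day 0, the contrast behind the choice, Lztfl1 had 7.79, 8.94 and 7.69 CPM against 12, 11.2 and 15.1 in DMSO. Rfx3, the ciliogenic RFX factor, had 5.94, 7.30 and 6.43 CPM against 9.0, 8.27 and 12.7. Ift22, a small GTPase-like subunit of complex B, had 4.58, 3.05 and 3.56 CPM against 5.73, 5.51 and 6.05. In each of the 3 genes the groups did not overlap. The log2 differences were -0.64 for Lztfl1, -0.60 for Rfx3 and -0.59 for Ift22. Wdr35 had 142 ± 6.54 CPM (SD, n = 3) against 161 ± 0.475, a log2 difference of -0.19, or -0.20 when centred. No test is given for this contrast. In bulk RNA, fewer cells that express a gene and less RNA per cell cannot be told apart, here and in all comparisons below.

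Genes are called where the adjusted p-value, from edgeR's quasi-likelihood test with Benjamini-Hochberg adjustment over all 17394 genes, lies below 0.05. At day 2, which the choice did not use, 4 of 31 members were lower in BPK25 than in DMSO (7.12% of all genes were lower) and 0 were higher (6.4% of all genes). Among these 4 are Lztfl1, Rfx3 and Ift22, chosen for low day 0 values in the same treatment. The count is raised by that choice and cannot be weighed against the share of all genes. Outside these chosen genes, only Ift52 was lower. Rfx3 had 7.68, 8.69 and 7.20 CPM against 12, 11.4 and 10.4 in DMSO, and every BPK25 library was below every DMSO library. It fell by 0.50 on the log2 scale (SE 0.13, adjusted p = 0.005), and all 13 other settings and left-out libraries kept the call. Ift22 had 4.70, 4.81 and 4.80 CPM against 5.88, 7.36 and 7.19. Its log2 difference was -0.52 (SE 0.16, adjusted p = 0.0171), a call lost without DMSO replicate 2, without DMSO replicate 3 and without BPK25 replicate 1. Lztfl1 had 7.51, 8.95 and 8.66 CPM against 10.3, 11.5 and 11. Its difference of -0.39 (SE 0.13, adjusted p = 0.0326) was lost in 5 of the 13 settings, among them those same 3 left-out libraries. Without any of these 3 libraries, 2 members rather than 4 were lower. Ift52, a core subunit of complex B, had 32.4, 33.7 and 33.6 CPM against 37.6, 39.8 and 43.6, and fell by 0.29 (SE 0.06, adjusted p = 0.00104). The other 27 members were not called, and the median member was at -0.06.

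**Figure D2:**
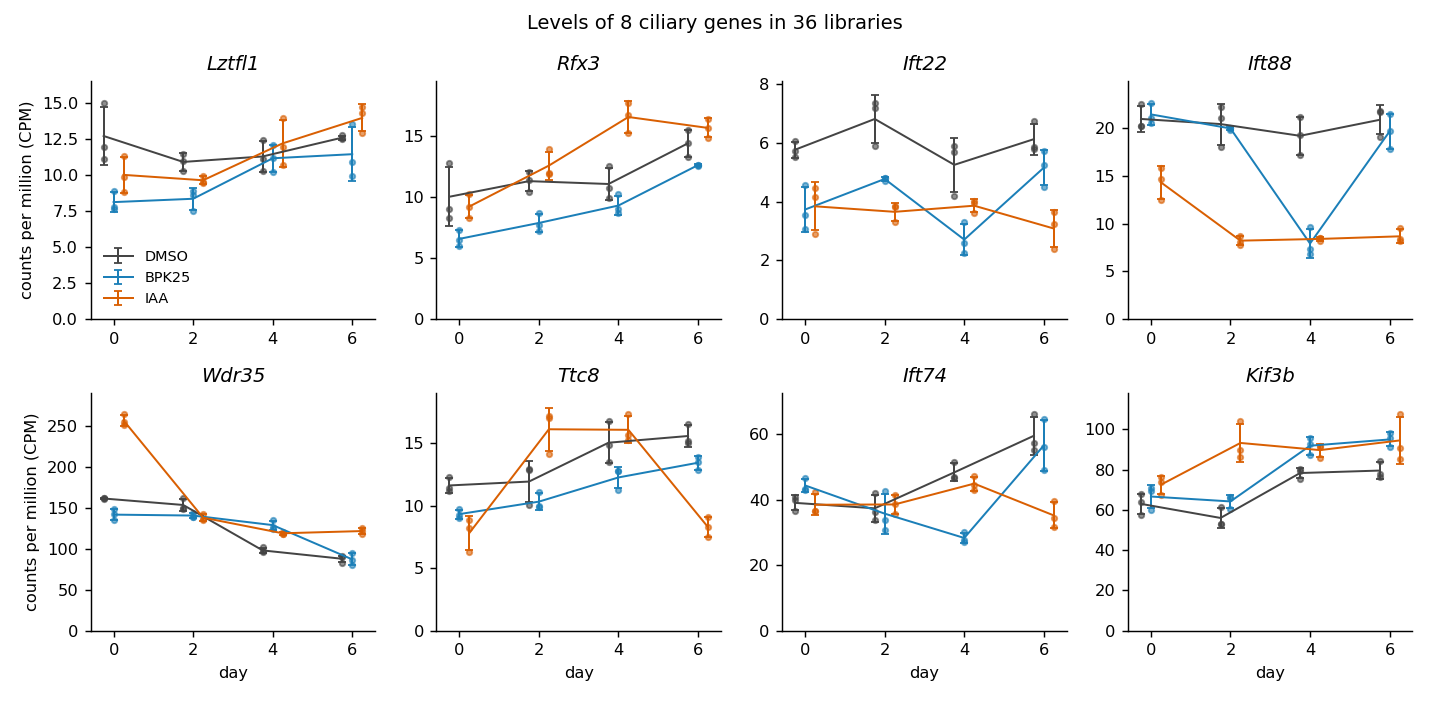
Level in CPM (vertical axis, from 0) of 8 members by day (horizontal axis), with 1 point per library and lines through the means with SD bars, for DMSO, BPK25 and IAA (n = 3 each). Rfx3 in BPK25 lies below DMSO at day 2, and Ift88 in the libraries labelled BPK25 at day 4 lies at the IAA level.

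The libraries labelled BPK25 at day 4 had 16 of 31 members lower than DMSO at day 4 and 4 higher, where 26.8% of all genes were lower and 26.2% higher. The median member was at -0.23 against -0.01 for all genes. Complex B led this count, with 8 of its 11 genes lower and 1 higher. The share of reads from mitochondrial genes was 1.86% to 2.06% in these libraries and 1.35% to 1.45% in DMSO at day 4, and the stem cell sum 1150 against 1349 CPM; their part in the result was not tested.

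Ift88, a core subunit of complex B without which cilia do not form, had 9.61, 6.84 and 7.31 CPM in the libraries labelled BPK25 at day 4 and 21.2, 19.3 and 17.2 in DMSO. The groups were far apart, and the log2 difference was -1.26 (SE 0.11, adjusted p = 1.11e-13). Its 50 nearest tested genes, over 4.61 Mb, had a median of -0.89, and 45 of the 50 were below 0. Centred on its stretch of chromosome 14, Ift88 was at -0.48 (adjusted p = 0.00039). Before centring, the nearby Cryl1, Eef1akmt1 and Xpo4 were at -1.46, -0.997 and -1.16 in the libraries labelled BPK25 at day 4. The centred value therefore does not set Ift88 apart from them. In BPK25 at days 0, 2 and 6 Ift88 averaged 21.4, 20.0 and 19.7 CPM, and it was not called against DMSO at days 2 and 6.

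Other complex B genes lie outside chromosomes 8, 12 and 14. Ift22 had 2.24, 3.29 and 2.59 CPM against 5.68, 4.19 and 5.88, with no overlap and a log2 difference of -0.97 (SE 0.19, adjusted p = 2.24e-05). Ift74, which binds tubulin together with Ift81, had 30.2, 27.6 and 27.2 CPM against 46.6, 51.5 and 47.0. It fell by 0.77 (SE 0.10, adjusted p = 2.35e-09), although Ift74 in DMSO was higher at day 4 than at day 2. Ift80, a peripheral subunit, had 28.2, 25.8 and 24.3 CPM against 41.6, 42.0 and 40.2 and fell by 0.66 (SE 0.06, adjusted p = 1.56e-12). Ift46 (-0.45), Ift20 (-0.35), Ift81 (-0.28) and Ift52 (-0.23) were also lower, and Ift57 was higher at 23.2 ± 0.576 against 18.5 ± 1.04 CPM (log2 difference 0.32, adjusted p = 0.00727).

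Of complex A, Ift43 and Wdr35 were called higher and Ift122 and Ift140 lower. Wdr35 had 135, 125 and 127 CPM against 95.5, 102 and 96.8, a log2 difference of 0.40 (adjusted p = 2.24e-09). Ift43 had 18.2, 24.6 and 19.2 CPM against 13.7, 13.5 and 14, a difference of 0.57 (adjusted p = 7.08e-05). Both lie on chromosome 12, and centred on that chromosome they were at 0.08 (adjusted p = 0.185) and 0.25 (adjusted p = 0.0760), so neither kept its call. Without them the count of members higher is 2. Among the BBSome genes, Bbs10, a chaperonin-like assembly factor, had 4.56, 4.08 and 3.70 CPM against 9.43, 7.34 and 7.20 and fell by 0.96 (SE 0.18, adjusted p = 1.08e-05). Ttc8, a BBSome subunit on chromosome 12, had 12.3 ± 0.861 CPM against 15.0 ± 1.62, a difference of -0.32 (adjusted p = 0.00909) that became -0.64 when centred. Bbs7 (-0.36), Bbs1 (-0.39) and Bbs12 (-0.68, with overlapping libraries) were lower as well, while Kif3b was higher at 0.24 and its partner Kif3a lower at -0.15. Rfx3 at 9.28 ± 0.802 against 11 ± 1.32 CPM and Lztfl1 at 11.2 ± 0.928 against 11.3 ± 1.11 were not called.

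**Figure D3:**
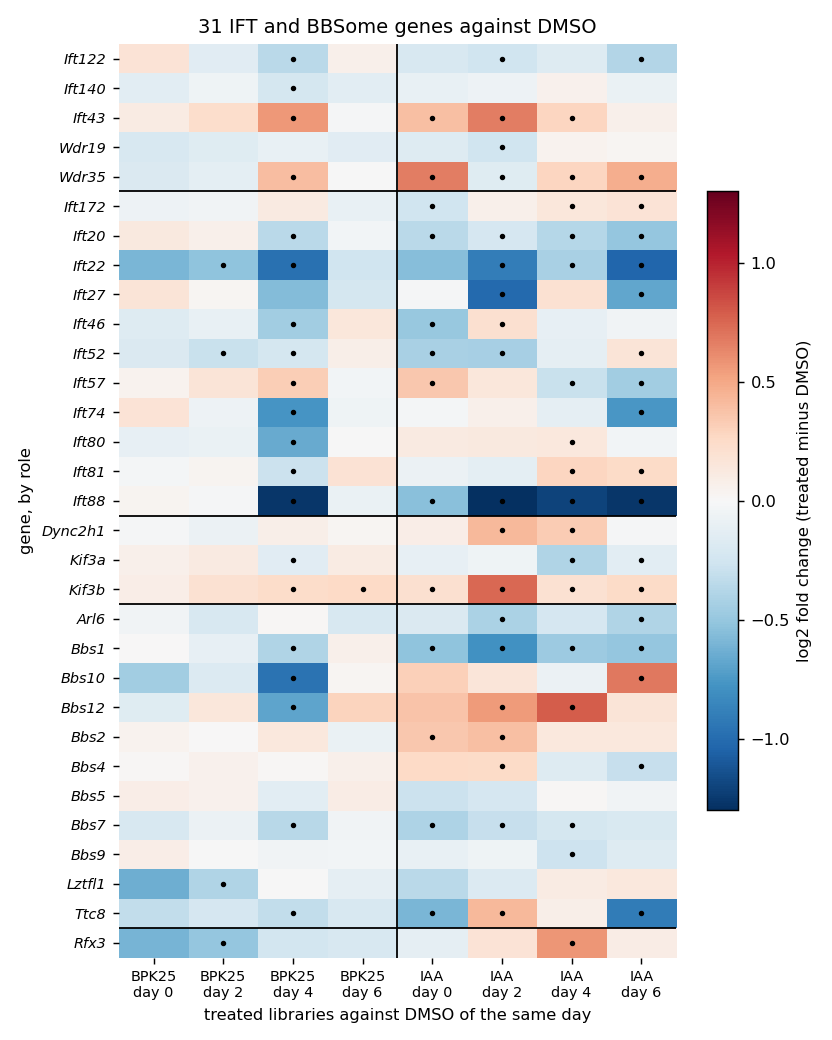
Log2 fold change (colour, treated minus DMSO of the same day) of the 31 members, in rows by role from complex A at the top to Rfx3 at the bottom, in 8 comparisons in columns. Dots mark an adjusted p under 0.05; the BPK25 day 0 column, and Lztfl1, Rfx3 and Ift22 at IAA day 0, carry none because the choice used them or their DMSO libraries.

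At day 6, 1 of 31 members was higher in BPK25 than in DMSO (4.01% of all genes) and 0 were lower (3.08% of all genes). The higher one was Kif3b, the other motor subunit of kinesin-II, with 91.1, 97.9 and 95.7 CPM against 76.2, 84.3 and 77.9. Its log2 difference was 0.26 (SE 0.07, adjusted p = 0.0102), lost without DMSO replicate 1 or without BPK25 replicate 2. Ift22 had 5.71, 4.51 and 5.23 CPM against 6.73, 5.84 and 5.80, a difference of -0.26 (95% interval -0.55 to 0.04). For Rfx3, 12.5, 12.6 and 12.6 CPM stood against 15.5, 13.3 and 14.4, a difference of -0.21 (interval -0.42 to 0.00). Lztfl1 was at -0.12 (interval -0.34 to 0.11). The intervals reach past the size of the day 2 differences of Ift22 but not of Rfx3 and Lztfl1. That leaves out the error of the day 2 values. Tested directly with edgeR, the effects at day 6 and day 2 were not called different for Rfx3 (adjusted p = 0.335) or Lztfl1 (adjusted p = 0.389).

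A joint test of whether the BPK25 effect differed between days 2, 4 and 6 called 14 of 31 members, and 46.6% of all genes. Ift88, Ift80 and Wdr35 had the smallest adjusted p-values (3.39e-10, 1.42e-08 and 2.45e-08). With the libraries labelled BPK25 at day 4 left out, the difference between the effects at day 6 and day 2 was called for 1 of 31 members and 6.84% of all genes. That member was Ift52, whose effect was 0.37 higher (log2) at day 6 than at day 2 (adjusted p = 0.00591). Ift88, Ift80 and Wdr35 then had adjusted p-values of 0.841, 0.697 and 0.366.

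IAA at day 0 uses the DMSO libraries of the contrast behind the choice, so Lztfl1, Rfx3 and Ift22 get values only and stay out of the counts. Lztfl1 had 8.84, 9.91 and 11.3 CPM, Rfx3 9.17, 8.24 and 10.2, and Ift22 4.15, 4.46 and 2.91. Of the other 28 members, 8 were lower and 5 higher, where 23.2% and 21.3% of all genes were called. The stem cell sum averaged 4338 CPM in IAA and 3120 in DMSO, and the mitochondrial share 1.59% and 1.16%. The part of these differences in the result was not tested. Wdr35 had 254, 264 and 251 CPM against 161, 161 and 162 in DMSO, the highest level of this gene in any group. Its log2 difference was 0.67 (SE 0.05, adjusted p = 4.93e-17), and 0.44 (adjusted p = 4.51e-11) when centred on chromosome 12. Ttc8 had 6.33, 8.24 and 8.88 CPM against 12.3, 11.4 and 11.2 and fell by 0.59 (SE 0.13, adjusted p = 0.000281), or to -0.82 when centred. Ift88 had 15.8, 12.5 and 14.7 CPM against 20.2, 20.2 and 22.5, a difference of -0.55 (adjusted p = 3.61e-05). The median of its 50 neighbours was -0.63, and centred it was at -0.02 (adjusted p = 0.894). The calls of Ift43 and Bbs2 were also lost when centred, at 0.16 and 0.12, leaving 3 members higher. Without IAA day 0 replicate 1 or replicate 2, 3 members rather than 5 were higher. Ift46 at -0.49 and Ift52 at -0.42, both core complex B subunits, were lower with no overlap.

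At day 2 in IAA, 11 of 31 members were lower (27.9% of all genes) and 8 higher (27.5%). Ift88 had 8.13, 7.80 and 8.74 CPM against 22.2, 21.0 and 18.1, a log2 difference of -1.29 (SE 0.11, adjusted p = 7.65e-14) that stood at -0.40 (adjusted p = 0.00338) when centred. The nearby Cryl1, Eef1akmt1 and Xpo4 were at -0.90, -0.71 and -1.50 before centring. Ift27 had 2.54, 1.68 and 2.09 CPM against 3.15, 4.42 and 4.73 and fell by 1.01 (SE 0.26, adjusted p = 0.000958). Ift22 had 3.30, 3.85 and 3.80 CPM, again below all DMSO libraries, and fell by 0.90 (SE 0.17, adjusted p = 1.31e-05). Bbs1 had 7.24, 6.91 and 5.98 CPM against 12.3, 10.2 and 11.9, a difference of -0.79 (adjusted p = 2.91e-06).

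On the other side at day 2, Kif3b had 89.5, 86.1 and 104 CPM in IAA against 53.2, 61.6 and 53.1, a difference of 0.74 (SE 0.07, adjusted p = 3.23e-12). Dync2h1, the heavy chain of the dynein that returns IFT trains, had 47.4, 45.6 and 46.8 CPM against 34.8, 33.6 and 35.8. Ift43 and Bbs2 at 0.67 and 0.39, and Ttc8 at 0.42, lost their calls when centred on chromosomes 12 and 8 (0.20, 0.09 and -0.05), which leaves 5 members higher. Bbs12 at 0.55 was lost in 8 of 13 settings, including each left-out library. Kif3b, Dync2h1 and Ttc8 stood at 78.3, 41.6 and 15.0 CPM in DMSO at day 4, where the stem cell sum was also nearer to that of IAA at day 2. Other members in IAA at day 2 stood nearer to DMSO at day 2. Kif3a was at 84.1 CPM, against 88.1 in DMSO at day 2 and 116 at day 4. Wdr35 was at 138 CPM, against 153 and 98.0. The part of the stem cell sum in the result was not tested.

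At day 4 in IAA, 9 members were higher and 8 lower, each near the background of 25.9%. Rfx3 had 16.7, 17.7 and 15.2 CPM against 9.91, 12.5 and 10.7 in DMSO, a rise of 0.57 on the log2 scale (SE 0.11, adjusted p = 1.45e-05). Bbs12 had 3.75, 3.52 and 4.50 CPM against 2.31, 2.00 and 2.64, a difference of 0.79 (SE 0.20, adjusted p = 0.000994). Ift88 had 8.53, 8.15 and 8.53 CPM and was at -1.21 (adjusted p = 1.54e-13), or -0.43 (adjusted p = 0.000913) when centred. The nearby Cryl1, Eef1akmt1 and Xpo4 were at -1.68, -0.34 and -1.02 before centring. Ift22 at -0.42 (adjusted p = 0.0344) was lost in 7 of 13 settings. Wdr35 and Ift43, both called at 0.28, were at -0.05 when centred and lost their calls, while Ttc8 gained one at -0.25 (adjusted p = 0.0311). Members called higher then numbered 7 and lower 9. Without DMSO day 4 replicate 1, 4 members rather than 9 were higher.

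At day 6 in IAA, 12 of 31 members were lower (30% of all genes) and 6 higher (30.6%). Ift88 had 9.51, 8.14 and 8.38 CPM against 21.8, 19.1 and 21.7, a difference of -1.26 (adjusted p = 1.73e-14) that was -0.51 (adjusted p = 9.49e-05) when centred. The nearby Cryl1, Eef1akmt1 and Xpo4 were at -1.49, -0.94 and -1.24 before centring, so the centred value does not set Ift88 apart from them. Ift22 had 2.38, 3.23 and 3.64 CPM against 6.73, 5.84 and 5.80 and fell by 1.03 (SE 0.17, adjusted p = 1.13e-06). Ttc8 had 7.51, 8.27 and 9.11 CPM against 15.0, 15.2 and 16.6 and fell by 0.91 (SE 0.11, adjusted p = 8.81e-10), or -1.18 when centred, while its 50 neighbours had a median of 0.14. Ift74 had 34.4, 39.5 and 31.7 CPM against 57.3, 66.1 and 55.2, a fall of 0.76 (SE 0.09, adjusted p = 3.34e-10).

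Bbs10 had 9.41, 8.79 and 9.71 CPM in IAA at day 6 against 6.03, 6.14 and 5.06, a rise of 0.69 (SE 0.16, adjusted p = 0.000164). Wdr35 had 122, 125 and 118 CPM against 83.3, 90.6 and 89.5, and its rise of 0.48 (adjusted p = 1.02e-11) was 0.20 (adjusted p = 0.000421) when centred. Ift81 at 0.25 lost its call without DMSO replicate 1 or IAA replicate 2. Without IAA day 6 replicate 2, 2 members rather than 6 were higher. Rfx3 and Lztfl1 were not called, at 0.10 and 0.14. The fibroblast sum was 315 CPM in IAA and 159 in DMSO at day 6, of which Col3a1 held 103 and 19.7. Of the 9 fibroblast genes tested, 6 were higher in IAA and 2 lower (30.6% and 30% of all genes). The part of the fibroblast sum in the members' differences was not tested. The joint test called an IAA effect that differed between days 2, 4 and 6 in 16 of 31 members, against 56.5% of all genes, led by Wdr35 (adjusted p = 2.51e-10), Ttc8 (1.12e-09) and Ift74 (1.04e-06).

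**Figure D4:**
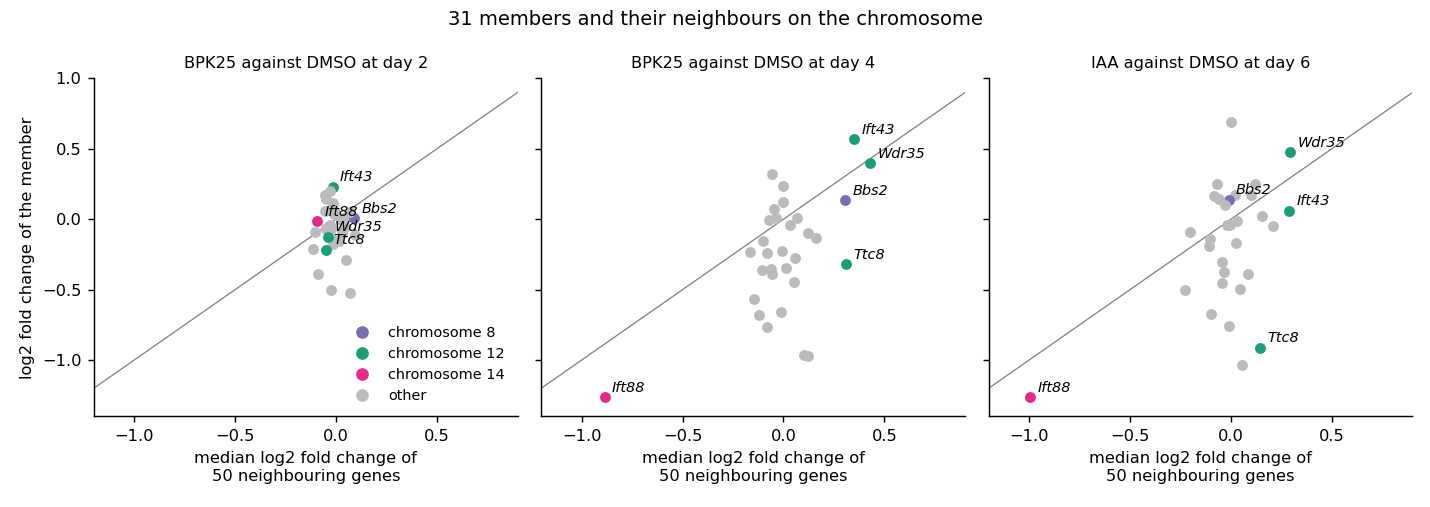
Log2 fold change of each of the 31 members (vertical axis) against the median of its 50 nearest tested genes (horizontal axis) in 3 comparisons, with the line of equality. Ift88 and its neighbours lie far below 0 in the libraries labelled BPK25 at day 4 and in IAA at day 6 but not in BPK25 at day 2, whereas Ttc8 lies well below the line.

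With time in DMSO, from day 2 to day 6, 14 of 31 members rose (33.1% of all genes) and 3 fell (29.8%). At day 4 against day 2, 13 had risen (26.6%) and 6 had fallen (24.5%). All 3 motor genes rose by day 6: Kif3b from 53.2, 61.6 and 53.1 to 76.2, 84.3 and 77.9 CPM (log2 difference 0.51, SE 0.07, adjusted p = 5.7e-08), Dync2h1 by 0.39 and Kif3a by 0.28. Ift74 went from 42.0, 36.3 and 33.8 to 57.3, 66.1 and 55.2 CPM, a rise of 0.68 (SE 0.09, adjusted p = 4.86e-09). Ift57 rose by 0.48 and so did Ift140, a complex A subunit that went from 38.3 ± 1.38 to 53.3 ± 0.394 CPM (adjusted p = 1.21e-09).

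Wdr35 went the other way in DMSO, from 149, 162 and 150 CPM at day 2 to 83.3, 90.6 and 89.5 at day 6, a fall of 0.81 (SE 0.05, adjusted p = 6.9e-20), or -0.95 when centred. Bbs1 fell by 0.50 and Ift52 by 0.36. Rfx3 rose by 0.38 (adjusted p = 0.00284), a call lost without the third DMSO library of day 2 or the first of day 6, and Lztfl1 (0.20) and Ift22 (-0.15) were not called. The Ift43 and Ttc8 rises, 0.40 and 0.37, became 0.26 and 0.23 when centred on chromosome 12 and were lost. Over these days the stem cell sum fell and the fibroblast sum rose, and their part in the members' changes was not tested. Without DMSO day 2 replicate 2, 7 members rather than 13 were higher at day 4 against day 2, without DMSO day 4 replicate 1 it was 8, and without DMSO day 2 replicate 3, 3 rather than 6 were lower. Without DMSO day 6 replicate 1, 5 rather than 3 were lower at day 6 against day 2.

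In BPK25, 16 members rose between days 2 and 6 (33.2% of all genes) and 3 fell (29.6%). Rfx3 went from 7.68, 8.69 and 7.20 to 12.5, 12.6 and 12.6 CPM, a rise of 0.67 (SE 0.12, adjusted p = 3.95e-06). Lztfl1 went from 7.51, 8.95 and 8.66 to 10.9, 9.92 and 13.6 CPM and rose by 0.48 (SE 0.12, adjusted p = 0.000642). Ift74 rose by 0.69, Ift81 by 0.58 and Kif3b by 0.57, and Wdr35 fell by 0.69, or -0.90 when centred. The Ttc8 rise of 0.37 was lost when centred, at 0.17. Without BPK25 day 6 replicate 3, 1 member rather than 3 fell. In IAA over the same days 9 members rose (30.1% of all genes) and 4 fell (28.9%), and without the low-count filter 5 rose. Ift81 went from 21.2 ± 1.04 to 37.4 ± 4.83 CPM (0.81, adjusted p = 8.96e-11), Lztfl1 rose by 0.52 and Ift140 by 0.46. Ttc8 fell from 17.0, 17.2 and 14.2 to 7.51, 8.27 and 9.11 CPM (-0.96, or -0.90 when centred, adjusted p = 5.77e-10), and Bbs4, another BBSome subunit, fell by 0.61. Bbs4 shares 194 exonic bases with Adpgk on the opposite strand, which had 10519 counts in all against 4704 for Bbs4, so its reads are uncertain to that extent.

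The last comparison set the libraries labelled BPK25 at day 4 against IAA at day 4, which share the chromosome pattern. Their stem cell sums averaged 1150 and 950 CPM and their fibroblast sums 73.3 and 138. The part of these sums in the result was not tested. Here 12 of 31 members were lower in BPK25 (27.1% of all genes) and 5 higher (27.2%; 3 without the low-count filter). Ift88 was not called, at -0.06 (95% interval -0.31 to 0.20), or -0.05 when centred. Rfx3 had 10.2, 8.68 and 8.97 CPM against 16.7, 17.7 and 15.2, a difference of -0.81 (SE 0.11, adjusted p = 1.47e-08). Ift80 had 28.2, 25.8 and 24.3 CPM against 47.1, 44.7 and 45.1, a difference of -0.80 (SE 0.06, adjusted p = 6.21e-16).

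Bbs12 stood at 1.16, 2.1 and 1.2 CPM in BPK25 against 3.75, 3.52 and 4.50 in IAA at day 4, a difference of -1.47 (SE 0.22, adjusted p = 1.85e-07), and Bbs10 was at -0.89. Bbs12 shares 32 exonic bases with Cetn4 on the opposite strand, and whether reads were counted by strand is unknown, so its reads are uncertain to that extent. Ift57 was higher in BPK25, at 23.2, 23.8 and 22.7 CPM against 16.3, 13.9 and 15.4 (0.61, SE 0.10, adjusted p = 1.56e-06). Without BPK25 replicate 2, 3 members rather than 5 were higher, and without IAA replicate 2 or replicate 3 it was 2.

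**Figure D5:**
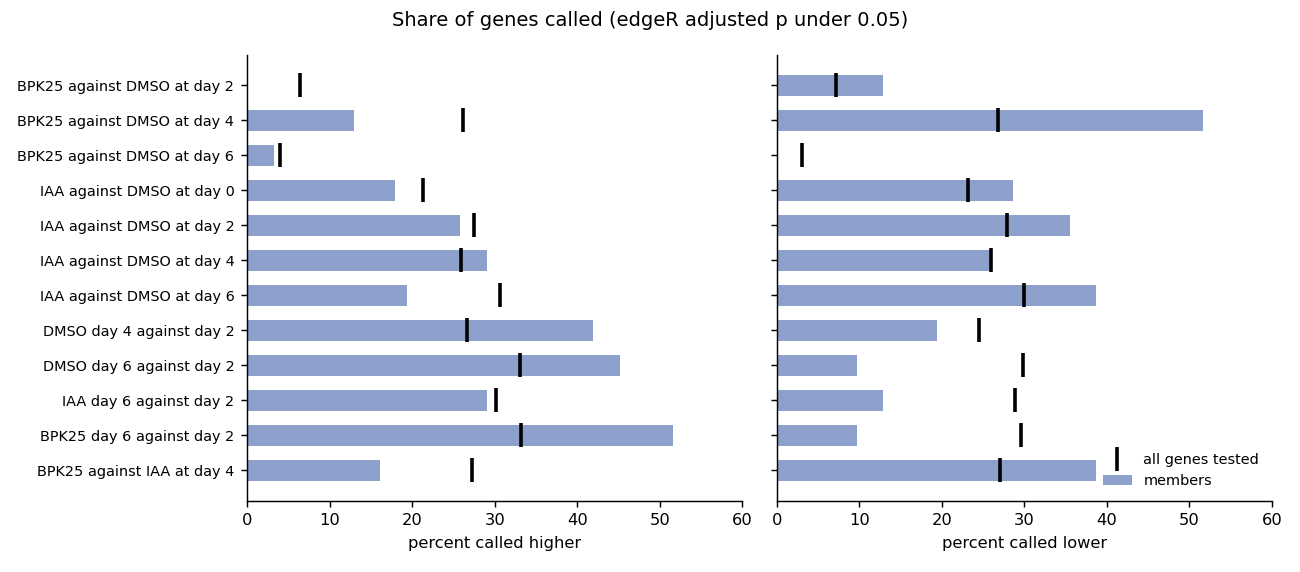
Percent of the 31 members (28 for IAA at day 0) called higher (left, bars) and lower (right, bars) in 12 comparisons, with a tick for the percent of all 17394 genes tested. The members' bar passes the tick most on the lower side for the libraries labelled BPK25 at day 4 (16 of 31, 51.6%), and on the higher side for BPK25 at day 6 against day 2 (16 of 31).

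A wider list of 57 cilium genes outside the 31 (other IFT, motor, BBSome, RFX, transition zone and Hedgehog genes) had 55 tested. In the libraries labelled BPK25 at day 4, 26 of the 55 were lower and 10 higher, with a median of -0.20, where 26.8% and 26.2% of all genes were called. Rpgrip1l, a scaffold of the transition zone at the base of the cilium, fell from 36.8 ± 2.85 to 15.2 ± 0.483 CPM (-1.27, adjusted p = 1.63e-16). Gli2, a Hedgehog transcription factor, was at -0.64 and Inpp5e, the ciliary lipid phosphatase, at -0.63. Other genes of the list stood higher: Kif17 averaged 6.86 CPM against 2.60 in DMSO at day 4, and Gli3 41.8 against 30.1. Values of this list are given without centring on chromosome stretches. At day 2 the list had 4 lower and 4 higher in BPK25 (7.12% and 6.4% of all genes), and at day 6 it had 1 and 3 (3.08% and 4.01%). In IAA at day 6, 23 were lower and 12 higher (30% and 30.6% of all genes). In DMSO at day 6 against day 2, 23 were higher and 17 lower (33.1% and 29.8% of all genes). Ptch1, the Hedgehog receptor and target, rose from 51.6 ± 0.685 to 83.0 ± 1.69 CPM (0.69, adjusted p = 2.89e-16).

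In BPK25 at day 2, the 13 members with the RFX half-site in their promoter window had a median of -0.05 and the 15 without it -0.06. In the libraries labelled BPK25 at day 4, 5 of the 13 and 8 of the 15 were lower, where 26.8% of all genes were. In IAA at day 2 the medians were -0.15 with the half-site and 0.15 without, and 1 of 13 against 7 of 15 were higher, where 27.5% of all genes were. In IAA at day 4 the medians ran the other way, at 0.06 and -0.11. There 4 of 13 against 3 of 15 were higher and 5 of 13 against 3 of 15 lower, where 25.9% of all genes were called in each direction. In BPK25 against IAA at day 4 the medians were -0.117 and -0.115. Rfx3 is itself among the 13. These are descriptions of small lists, and no test was made of the split.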

How the data were processed

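PolyA RNA of 36 libraries (12 groups of 3) was analysed from 1 table of raw read counts per gene that the authors deposited. FastQC 0.11.7, HISAT2 2.1.0, featureCounts 2.0.1, DESeq2 and the build mm10 are named in the submitters' processing notes. The strand setting was not given in the sources used here, nor was the annotation release. Groups came from the sample titles. Genes were kept by filterByExpr (minimum count 10), scaled by TMM and fitted over all 12 groups with edgeR 4.0.16's quasi-likelihood test (R 4.3.3, limma 3.58.1), two-sided, with Benjamini-Hochberg adjustment over 17394 genes and a threshold of 0.05. Adjusted p-values in the text are from this test. BPK25 against DMSO at day 0 chose genes and was not tested. Lztfl1, Rfx3 and Ift22 were left out of the counts for IAA at day 0, which uses the same DMSO libraries. SEs are the log2 difference over the root of F, and CPM used TMM-scaled totals. The 36 replicate pairs differed by more than counting noise (chi-square per degree of freedom 1.35 to 2.85). Replicate numbers did not pair the libraries, since correlations of deviations were -0.03 to 0.04.

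All members could be named. Values per library were given for Lztfl1, Rfx3 and Ift22 and for up to 3 members in each direction among those called without overlap. Outside this rule, they were also given for some other called members, such as Ift74, Bbs1 and Dync2h1. Other values are shown where a result turned on them. The members and lists were chosen with earlier results of these data known. The fit was tested on simulated data. Alternatives were other size factors, 2 other filters, a replicate block, a fit on only the libraries compared, DESeq2 1.42.0 and leaving out each library. Centring chromosomes 8, 12 and 14 (divided at 45 Mb) and leaving out day 4 were added after seeing the data.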

Additional observations from a re-analysis of the deposited data

Results flagged for a closer look

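The effect of BPK25 against DMSO differed between days 2, 4 and 6 by edgeR's joint test for Ift88 (adjusted p = 3.39e-10), Ift80 (1.42e-08), Wdr35 (2.45e-08) and Ift22 (0.0398). These values include the libraries labelled BPK25 at day 4, whose chromosome medians stood apart. The effect of IAA differed between those days for Wdr35 (adjusted p = 2.51e-10), Ttc8 (1.12e-09), Ift74 (1.04e-06) and Rfx3 (0.0146). Rfx3 in IAA was at 0.17 at day 2, 0.57 at day 4 and 0.10 at day 6 on the log2 scale.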

How the results depend on the processing

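Of the counts of members called, 336 alternative values stayed within 1.5 times and 27 moved. Without the low-count filter, members higher went from 0 to 1 in BPK25 at day 2 (also 1 with only the libraries compared), from 9 to 5 in IAA at day 6 against day 2, and from 5 to 3 in BPK25 against IAA at day 4. With chromosomes 8, 12 and 14 centred, members higher went from 4 to 2 in the libraries labelled BPK25 at day 4, from 5 to 3 in IAA at day 0 and from 8 to 5 in IAA at day 2. With day 4 left out, members whose BPK25 effect differed between days went from 14 to 1. The replicate block changed no count by over 1.5 times, and gave 6 members higher in IAA at day 0 and 8 in IAA at day 4. Leaving out each library gave these ranges, higher then lower. BPK25 had 0 to 1 and 2 to 4 at day 2, 4 to 5 and 13 to 16 at day 4, and 0 to 1 and 0 to 0 at day 6. IAA had 3 to 6 and 8 to 9 at day 0, 6 to 7 and 8 to 11 at day 2, 4 to 8 and 6 to 7 at day 4, and 2 to 7 and 9 to 13 at day 6. DMSO had 7 to 12 and 3 to 5 at day 4 against day 2, and 12 to 14 and 3 to 5 at day 6. Day 6 against day 2 had 6 to 9 and 4 to 5 in IAA, and 12 to 16 and 1 to 4 in BPK25. BPK25 against IAA at day 4 had 2 to 5 and 12 to 14. The joint tests had 10 to 15 (BPK25) and 13 to 17 (IAA). Differences that were not called changed sign over the left-out libraries, with ranges of -0.093 to 0.080 for Lztfl1 in BPK25 at day 4, -0.24 to 0.079 for Rfx3 in IAA at day 0, -0.039 to 0.11 for Lztfl1 in DMSO at day 4 against day 2 and -0.12 to 0.062 for Rfx3 there. For single genes, 1224 values stayed the same, 58 lost their call and 1 gained one, and 1 untested value moved by more than the spread between libraries. The causes were not tested, apart from the fewer samples left. Low counts of Bbs12, Ift27 and Ift22 limit what can be detected for them.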
